A study of Mus musculus with 14 samples.

Results

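The mitochondrially encoded genes are the 37 genes of the mouse mitochondrial chromosome (MT), chosen as the rows of the gene table that the authors placed on that chromosome, of 56748 genes in all. They comprise 13 protein-coding genes, 2 ribosomal RNA (rRNA) genes and 22 transfer RNA (tRNA) genes. Their levels were read in 14 RNA-seq libraries of whole ovary from female wild-type C57BL/6J mice. The groups were control at day 7 (n = 3), mice given dextran sulfate sodium (DSS, which damages the gut lining and is used to model colitis) at day 7 (n = 4), control at day 89 (n = 3) and DSS at day 89 (n = 4). Day 7 is the end of the DSS treatment, and day 89 follows a long rest. No allele or agent other than DSS is named for any group, and the sources used here do not give the age of the mice. The labels do not tie libraries to single animals. The p-values therefore rest on library-to-library spread, of which some may be technical.

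Mammalian mitochondria keep a small circular genome of their own. Both of its strands are transcribed into long precursors, and the tRNAs that lie between most of the other genes are cut out to free the mRNAs and rRNAs. The 13 mRNAs encode membrane subunits of the respiratory chain and the ATP synthase, and the rRNAs and tRNAs serve the mitochondrial ribosome that translates them. All other proteins of mitochondria come from nuclear genes. In the ovary, oocytes hold very large numbers of mitochondria, and luteal cells carry out the initial step of steroid synthesis in theirs.

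In the table, 12 mRNAs, both rRNAs and 14 tRNAs lay on the plus strand of MT, and mt-Nd6 and 8 tRNAs lay on the minus strand. All 37 positions and lengths equalled those of the GENCODE M21 annotation of GRCm38. Values were FPKM (fragments scaled to gene length and library size), which divide by gene length, and testing needed an FPKM of 0.5 or more in 3 or more libraries. All mRNAs, both rRNAs and 18 tRNAs passed, 33 genes in all of the 18006 tested. Of the 4 tRNAs not tested, mt-Tf had no read in any library, and mt-Tv, mt-Tk and mt-Td had 3, 3 and 1 reads over all libraries.

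A set of 6 tRNA genes carries much of what follows and is shown as the RNA reads, with t for u and the anticodon in capitals. They are the neighbours mt-Th, mt-Ts2 and mt-Tl2 between mt-Nd4 and mt-Nd5, mt-Tr before mt-Nd4l, and the minus-strand genes mt-Te and mt-Tp.
mt-Th (histidine, MT:11546-11612, plus): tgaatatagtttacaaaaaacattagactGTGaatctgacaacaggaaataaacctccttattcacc
mt-Ts2 (serine, MT:11613-11671, plus): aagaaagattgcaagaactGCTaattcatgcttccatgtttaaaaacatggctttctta
mt-Tl2 (leucine, MT:11671-11741, plus): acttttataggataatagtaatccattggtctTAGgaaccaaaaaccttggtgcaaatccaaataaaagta
mt-Tr (arginine, MT:9808-9875, plus): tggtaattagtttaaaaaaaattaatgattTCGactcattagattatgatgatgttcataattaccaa
mt-Te (glutamic acid, MT:14071-14139, minus): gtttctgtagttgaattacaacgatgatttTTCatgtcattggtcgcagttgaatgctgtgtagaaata
mt-Tp (proline, MT:15356-15422, minus): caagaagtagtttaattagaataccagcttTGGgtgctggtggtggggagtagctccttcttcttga

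Neighbouring mitochondrial genes overlap, so some bases belong to more than 1 gene. The longest overlap was that of the ATP synthase subunits mt-Atp8 and mt-Atp6, which share 43 bases in different frames. The stretch is shown with the start codon of mt-Atp6 and the stop codon of mt-Atp8 in capitals.
mt-Atp8 and mt-Atp6 overlap (MT:7927-7969, plus): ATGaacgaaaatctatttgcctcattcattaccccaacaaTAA
The ends of mt-Nd5 and mt-Nd6 overlap by 14 bases on opposite strands, and those of mt-Nd4l and mt-Nd4 by 7 bases. The sources used here do not say how reads in overlaps, antisense reads or multiply mapped reads were assigned. Without strand, reads of a gene and of RNA from the opposite strand cannot be told apart, which bears on mt-Nd6 and on the minus-strand tRNAs.

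A long piece of this genome also has a near-identical copy in the nucleus. On chromosome 1, minus strand, 7 annotated pseudogenes matched pieces of MT bases 6390 to 11042, a stretch of 4653 bases. The bases between these pieces were not aligned, and they hold most of mt-Atp8 and nearly all of the tRNA genes there. The copies of mt-Co2 (Gm28661, 681 bases), mt-Atp6 (Gm10925, 678 bases), mt-Co3 (Gm28437, 783 bases) and mt-Nd4l (Gm10222, 294 bases) matched without a mismatch. So did the copy of the opening 876 bases of mt-Nd4 (Gm28439). The copies of mt-Nd3 (Gm28438, 345 bases) and of the last 483 bases of mt-Co1 (Gm29216) had 1 mismatch each, shown in capitals. Within these copies few reads can thus be placed by sequence.
mt-Co1 (MT:6390-6450, plus): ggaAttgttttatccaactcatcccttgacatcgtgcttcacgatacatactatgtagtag
Gm29216 (chr1:24616128-24616188, minus): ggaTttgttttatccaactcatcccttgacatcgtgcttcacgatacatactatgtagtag
mt-Nd3 (MT:9459-9519, plus): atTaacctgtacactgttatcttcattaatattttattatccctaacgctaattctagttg
Gm28438 (chr1:24613059-24613119, minus): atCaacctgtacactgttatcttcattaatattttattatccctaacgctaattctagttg
An older copy, Gm11408 of mt-Nd6 on chromosome 4, is shown for contrast. It matched mt-Nd6 at 93.6% of 519 bases, and 3 of the 81 bases below differ.
mt-Nd6 (MT:13990-14070, minus): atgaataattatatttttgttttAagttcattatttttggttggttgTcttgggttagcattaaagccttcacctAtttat
Gm11408 (chr4:80003834-80003914, minus): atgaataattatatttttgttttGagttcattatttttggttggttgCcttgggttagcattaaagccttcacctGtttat

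In all, 6 mRNAs lie wholly inside the copied stretch: mt-Co2, mt-Atp8, mt-Atp6, mt-Co3, mt-Nd3 and mt-Nd4l. So do 5 tRNAs, among them mt-Tr, while mt-Co1 and mt-Nd4 lie partly inside it. The tRNAs and mt-Atp8 were placed inside by position, without an aligned copy of their own. Between the copies of mt-Nd3 and mt-Nd4l, where mt-Tr lies, the spacing on chromosome 1 differs from that on MT. The remaining 5 mRNAs (mt-Nd1, mt-Nd2, mt-Nd5, mt-Nd6 and mt-Cytb), both rRNAs and 17 tRNAs lie outside.

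The libraries differed widely in how many reads fell on the mitochondrial genes. Recovered totals were 15256018 to 18505144 reads per library. The mitochondrial share was 9.96%, 1.66% and 12.2% of reads in control replicates 10, 51 and 53 of day 7. In DSS replicates 75, 80, 81 and 82 of day 7 it was 14.2%, 3.48%, 4.04% and 3.88%. At day 89 it was 2.25%, 0.479% and 1.84% in control replicates R123, R124 and R126, and 2.43%, 3.66%, 2.57% and 2.37% in DSS replicates R29, R38, R78 and R89. The highest share was 29.7 times the lowest. The 95% Wilson intervals of the lowest and the highest share were 0.476% to 0.482% and 14.2% to 14.3%, which cover counting error only.

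Group means were 7.94% ± 5.55 (SD, n = 3) in control and 6.41% ± 5.22 (n = 4) in DSS libraries of day 7. At day 89 they were 1.52% ± 0.927 (n = 3) and 2.76% ± 0.609 (n = 4). The groups of day 7 overlapped, and so did both days within each treatment. At day 89 all 4 DSS libraries lay above all 3 control libraries, the nearest pair being DSS R89 at 2.37% and control R123 at 2.25%. These sums are a description and were not tested. In whole tissue, fewer cells rich in mitochondria and less mitochondrial RNA per cell cannot be told apart.

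**Figure D1:**
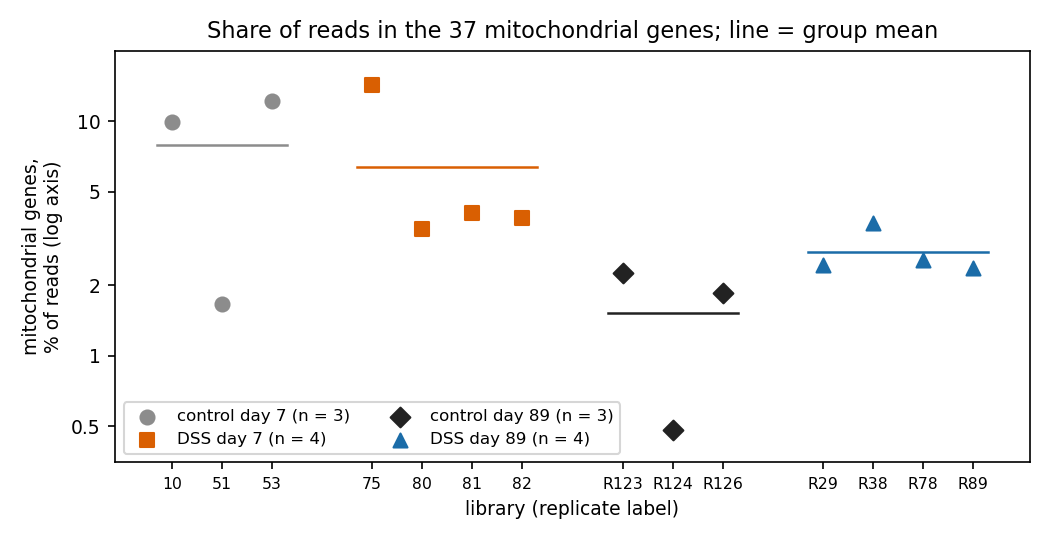
Share of all reads in the 37 mitochondrial genes, in percent on a log axis, 1 point per library by group and replicate label; lines are group means. Control 10, control 53 and DSS 75 of day 7 lie between 9.96% and 14.2%, and the other libraries between 0.479% and 4.04%.

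Marker genes of the tissue were measured beside the share. The summed FPKM of 10 luteal markers ran from 2092 to 6116, and that of 12 retina markers from 3.9 to 7.73 in every library. The retina list was measured because the extraction text in the labels speaks of retinas, whereas the tissue is given as ovary. The summed FPKM of 12 oocyte markers was lowest in control R124 (44.2), the library of lowest mitochondrial share, against 74.5 to 604 in the others. The next lowest was DSS R38 (74.5), whose share of 3.66% was the highest of day 89. At day 7 the sums in DSS 80, 81 and 82 (490.5, 603.7 and 372) exceeded those in control 10 and control 53 (303.3 and 334.8). The mitochondrial shares of these libraries were in the opposite order. The neutrophil markers summed to 132 in DSS 75, the library of highest share, against 1.81 to 19.9 in the others. A list of 12 nuclear genes for matrix proteins, as a reading of mitochondrial content, varied only from 622.5 in DSS 75 to 881 in control 51. Their part in the mitochondrial share was not tested.

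Per length, mt-Co1, the catalytic subunit of cytochrome c oxidase, was the most abundant mitochondrial RNA in every library. Its FPKM was 25310, 4629 and 35260 in control replicates 10, 51 and 53 of day 7, and 44060, 8366, 9922 and 10110 in DSS replicates 75, 80, 81 and 82. At day 89 it was 5767, 1416 and 4809 in control R123, R124 and R126, and 5834, 7232, 6411 and 6392 in DSS R29, R38, R78 and R89. Both groups of day 7 held libraries far above the rest, and at day 89 every DSS library exceeded every control library, the nearest pair being 5834 and 5767.

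Next in order of level came mt-Cytb, the mitochondrial subunit of the cytochrome bc1 complex, and mt-Nd1, a subunit of NADH dehydrogenase (complex I). mt-Cytb stood at 16920, 1865 and 18590 FPKM in the controls and 22780, 5340, 6147 and 5764 in the DSS libraries of day 7. Its values at day 89 were 3340, 537.7 and 2611 in controls and 3387, 6366, 3755 and 3687 in DSS libraries. mt-Nd1 ran from 545.5 FPKM in control R124 to 21350 in DSS 75. mt-Cytb was the higher of the pair except in control 51 (1865 against 2032) and control R124 (537.7 against 545.5). The pair took 12.5% to 21.7% (mt-Cytb) and 12.9% to 17.5% (mt-Nd1) of the summed mitochondrial FPKM of a library, and mt-Co1 took 24.7% to 34.7%.

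The complex I subunits mt-Nd2, mt-Nd4, mt-Nd5 and mt-Nd6 formed a lower tier. Their shares of the summed mitochondrial FPKM were 5.13% to 10.7%, 2.78% to 10.45%, 3.39% to 6.49% and 3.37% to 10.2%. These 4 genes changed places from library to library, so their order did not hold beyond the spread. Each was lowest in control R124 (216.6, 117.2, 222.1 and 429.1 FPKM) and highest in DSS 75 (12350, 10100, 7961 and 7494 FPKM). The same pair of libraries was lowest and highest for mt-Nd1, mt-Co1, mt-Co3 and mt-Cytb. Of the lower tier, mt-Nd4 lies partly inside the copied stretch, and 63.6% of its length matched a copy. The level, share and place of mt-Nd4 are thus uncertain. The same holds in part for the level of mt-Co1, of which 31.3% matched a copy.

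The 6 mRNAs inside the copied stretch had far lower FPKM than those outside it. Their highest values in any library were 1655 (mt-Co2), 1319 (mt-Atp6), 2081 (mt-Co3), 567.8 (mt-Nd3), 243.4 (mt-Nd4l) and 32.3 (mt-Atp8). Together they held 0.589% to 2.23% of mitochondrial reads, against 41.3% to 52.95% for the 5 mRNAs outside. These genes come from the same precursor as mt-Co1 and encode the other core subunits of cytochrome oxidase (mt-Co2, mt-Co3), the ATP synthase subunits, and 2 subunits of complex I. The part that multiply mapped reads play in their low values was not tested. Their values are thus uncertain as levels, and so are ratios among them. The ratio of mt-Co3 to mt-Atp6 in FPKM, for instance, went from 0.24 in control 10 to 6.36 in control R124.

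**Figure D2:**
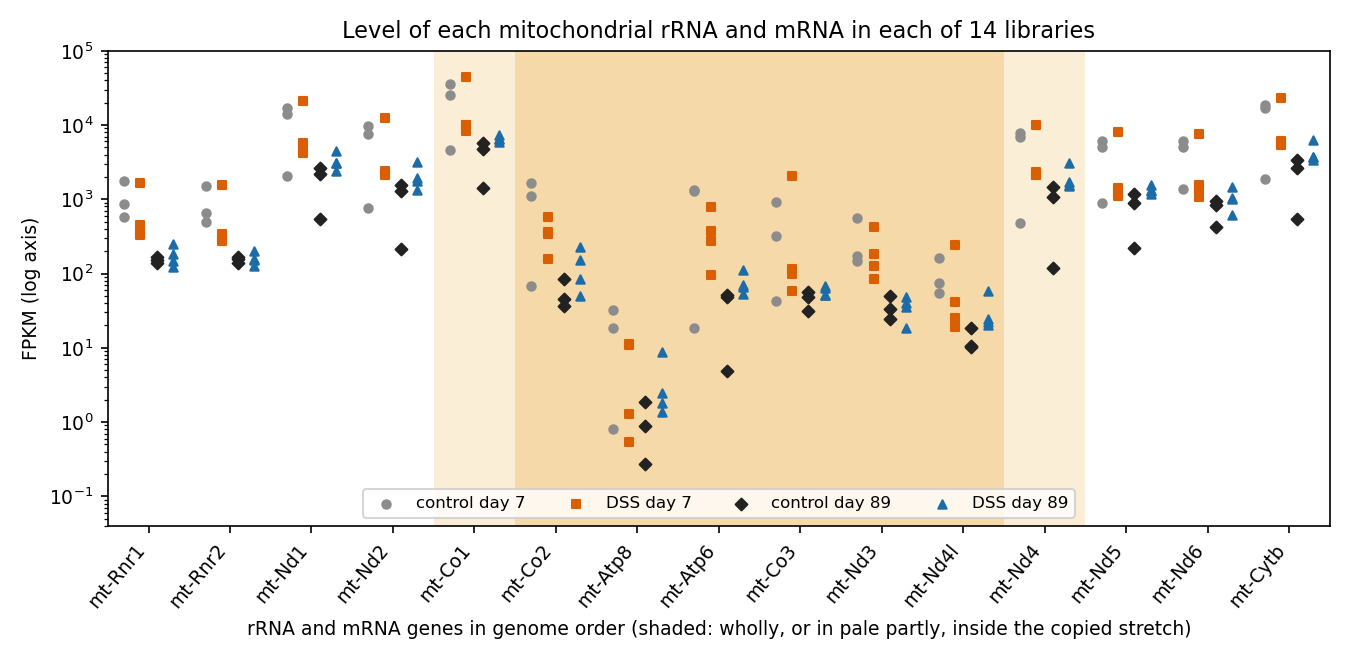
FPKM on a log axis of the 2 rRNAs and 13 mRNAs in genome order, 1 point per library, coloured by group; shading marks genes wholly inside the copied stretch and, in pale, partly inside it. Genes wholly inside the stretch lie at or below 2081 FPKM in every library, while mt-Co1 reaches 44060.

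The copies on chromosome 1 carried reads too. Of the reads in each pair, summed over all libraries, the copy held 34.7% for mt-Co2, 28.6% for mt-Atp6, 26.6% for mt-Co3, 23.7% for mt-Nd3 and 35.2% for mt-Nd4l. It held under 1 in 100 for mt-Co1 (0.389%) and mt-Nd4 (0.785%). These copies match only 31.3% of mt-Co1 and 63.6% of mt-Nd4, while the reads of the whole gene were counted. The low percentages of mt-Co1 and mt-Nd4 are therefore not comparable with those of the other pairs. Single libraries varied widely, from 17.6% to 63.6% for mt-Co2, 19.7% to 58.0% for mt-Atp6 and 14.3% to 49.8% for mt-Co3. For mt-Nd3 the range was 11.1% to 60.2%, for mt-Nd4l 14.1% to 57.6%, and for mt-Nd4 0.465% to 2.95%. By mean FPKM the highest were Gm28661 (186.6), Gm29216 (153.6), Gm10925 (128.0), Gm28437 (96.3), Gm28438 (44.5) and Gm28439 (38.4). The 7 copies summed to 37.96 RPM (reads in 1000000 reads of the library) in control R124 and 1120 in control 53. They amounted to between 0.609% and 1.11% of the mitochondrial reads in every library, and so followed the mitochondrial share. Of the 10 other annotated copies found, none of which was as close as these, the highest reached 4.61 FPKM (Gm13340, 97.6% of mt-Co1), and Gm11408, shown above, held 2 reads over all libraries. Copies that GENCODE does not annotate were not searched for.

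**Figure D3:**
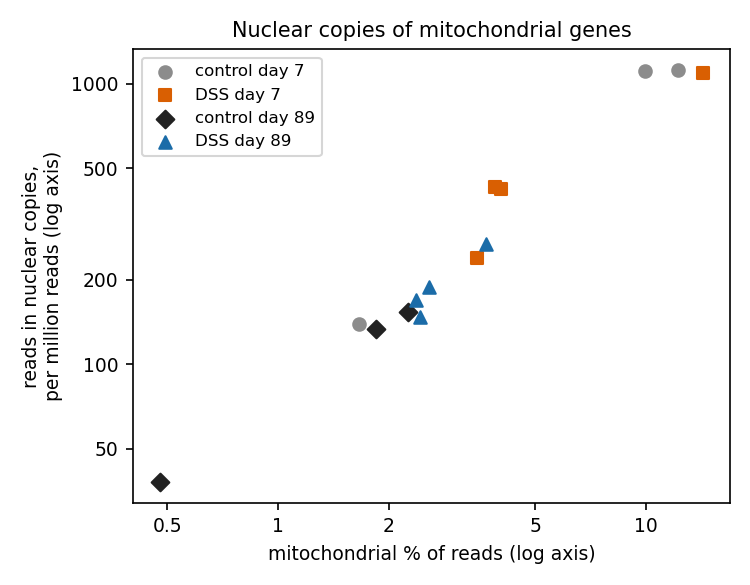
RPM in the 7 nuclear copies on chromosome 1 against the mitochondrial percent of reads, both on log axes, 1 point per library. The points rise together from control R124 (37.96 RPM, 0.479%) to control 10, control 53 and DSS 75 (1095 to 1120 RPM).

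The rRNAs mt-Rnr1 (12S, of the small subunit) and mt-Rnr2 (16S, of the large subunit) took a small part of the mitochondrial reads in nearly all libraries. mt-Rnr1 stood at 877, 574.3 and 1742 FPKM in controls and 1670, 328.1, 451.6 and 360.1 in DSS libraries of day 7. At day 89 its FPKM was 153.4, 138.6 and 165.7 in controls and 180.9, 248.6, 149.7 and 122.6 in DSS libraries. mt-Rnr2 stood at 649.2, 500 and 1512 in controls and 1576, 277.7, 341.8 and 291 in DSS libraries of day 7, and at 140, 158.8 and 167.8 in controls and 151.6, 202.2, 157.2 and 124.7 in DSS libraries of day 89. For both rRNAs every library of day 89 lay below every library of day 7. The ratio of mt-Rnr1 to mt-Rnr2 stayed between 0.873 and 1.35.

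DSS against control asks whether mitochondrial transcripts differ at the end of treatment and after rest. No mitochondrial gene passed the test at either day. At day 7 limma called 0 of the 33 genes at an adjusted p under 0.05, and 0 had an unadjusted p under 0.05, with limma-trend or with voom. Of all 18006 genes, 0.0333% were called, so such a comparison called almost nothing at all. The log2 fold changes of the 13 mRNAs ran from -1.14 (mt-Atp8) to 0.10 (mt-Nd4). They were -0.21 (SE 0.75, limma adjusted p = 0.917) for mt-Co1 and -0.05 (SE 0.83, adjusted p = 0.988) for mt-Cytb. Both rRNAs were lower on average, mt-Rnr1 by -0.81 (SE 0.50, adjusted p = 0.444) and mt-Rnr2 by -0.79 (SE 0.52, adjusted p = 0.478). In no mitochondrial gene did the groups of day 7 separate, against 6.24% of all genes tested with every DSS library above every control and 5.87% with every one below.

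These day 7 values depended on single libraries. Without DSS 75, 3 genes were called lower in DSS (mt-Rnr1 -1.34, mt-Rnr2 -1.38 and mt-Nd4l -1.64), where 3.35% of all genes were called lower. Without control 10, control 53 and DSS 75, mt-Co1 and mt-Cytb turned to 1.03 and 1.62. That fit keeps control 51 as the sole control of day 7, and the libraries left out were set apart by the mitochondrial share itself. Libraries were also weighted by how closely they followed their group means over all tested genes. DSS 75 then had a weight of 0.213, and control 53 one of 5.4 against 0.432 and 0.28 for control 10 and control 51. The control mean of day 7 thus rested mostly on control 53. In that fit 28 of the 33 genes were called lower, as were 20.1% of all genes.

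At day 89 limma again called 0 of the 33 genes, with 0 at an unadjusted p under 0.05 by limma-trend or voom, and 0.00555% of all genes tested were called. Of the 33 genes, 9 had every DSS library above every control library, and 0 had every one below. The shares over all genes were 4.04% above and 4.25% below. The 9 were the mRNAs mt-Co1, mt-Cytb, mt-Nd4, mt-Nd5, mt-Atp6 and mt-Nd4l and the tRNAs mt-Tp, mt-Tc and mt-Ty. Mitochondrial genes share their libraries and their precursors, so these counts are not independent.

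The fold changes behind that count were imprecise, and those of all but mt-Nd4l moved by over 1.5 times without control R124. They were 0.92 (SE 0.75) for mt-Co1, 1.31 (SE 0.83) for mt-Cytb, 1.72 (SE 1.00) for mt-Nd4, 1.11 (SE 0.78) for mt-Nd5, 1.57 (SE 1.24) for mt-Atp6 and 1.11 (SE 0.69) for mt-Nd4l. Their limma adjusted p was 0.928 for mt-Co1 and 0.924 for the others. Without control R124 they were 0.29 (SE 0.80) for mt-Co1, 0.49 (SE 0.85) for mt-Cytb, 0.59 (SE 0.97) for mt-Nd4, 0.38 (SE 0.80) for mt-Nd5, 0.54 (SE 1.33) for mt-Atp6 and 0.98 (SE 0.80) for mt-Nd4l. The rRNAs differed less, by 0.16 (SE 0.50) for mt-Rnr1 and 0.01 (SE 0.52) for mt-Rnr2. The difference between the DSS effects of both days was tested directly, and limma called 0 of the 33 genes and 0% of all genes, with 0 of the 33 at an unadjusted p under 0.05 by limma-trend or voom. With the library weights it called 23 of the 33, all with a higher DSS effect at day 89, and 11.7% of all genes in that direction. Those weights were highest for control 53 (5.4) and control R126 (5.21), on which the control means then mostly rested.

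From day 7 to day 89 many mitochondrial transcripts fell, in both treatments. In controls limma called 20 of the 33 genes, all lower at day 89, where 15.7% of all genes tested were called lower. They were 8 mRNAs, both rRNAs and 10 tRNAs. In DSS ovaries it called 11, all lower, where 10.7% of all genes were called lower: mt-Nd3, both rRNAs and 8 tRNAs. With voom the counts were 17 and 9. They are given without the share of all genes that voom called, so they alone do not set the members apart from other genes. All 33 estimates were below 0 in each of these comparisons, with medians of -2.34 in controls and -1.26 in DSS ovaries, against -0.0048 and 0.0045 over all genes tested. Each day comparison shares its libraries with the DSS comparisons. The labels name no batch, and a difference in handling between the days cannot be told apart from the time itself.

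Markers of cell types moved between the days as well. Of 12 oocyte markers 5 were lower at day 89 in controls and 11 in DSS ovaries, with medians of -0.74 and -1.51. Their summed FPKM was 197.4 to 334.8 in controls and 372 to 603.7 in DSS libraries of day 7, and 44.2 to 185.7 and 74.5 to 226.8 at day 89. Of 10 luteal markers 6 were higher at day 89 in DSS ovaries (median 1.36), while in controls the median was 0.72 and limma called 0 (2 at an unadjusted p under 0.05, and 2 by voom). Of 10 macrophage markers 4 were higher in controls and 3 in DSS ovaries, against 16.1% and 10.7% of all genes called higher. Of 4 tested oviduct epithelium markers 3 were lower in controls and 2 in DSS ovaries, and of 5 tested neutrophil markers 3 were lower and 1 higher in DSS ovaries (median -2.10). The part of these cell types in the fall of mitochondrial transcripts was not tested.

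Among the control mRNAs, mt-Nd3 fell by 2.79 on the log2 scale (SE 0.58, limma adjusted p = 0.0034) and mt-Nd4l by 2.70 (SE 0.73, adjusted p = 0.014). mt-Co2 fell by 3.23 (SE 0.94, adjusted p = 0.0189) and mt-Atp6 by 3.70 (SE 1.33, adjusted p = 0.0476), all 4 genes from the copied stretch. Outside the stretch, mt-Nd6 fell by 2.32 (adjusted p = 0.0214), mt-Nd1 by 2.42 (0.0385) and mt-Nd5 by 2.30 (0.0488), and mt-Co1, partly inside, fell by 2.24 (0.0467). Estimates for mt-Cytb (-2.32, adjusted p = 0.0592), mt-Nd2 (-2.33, 0.0799), mt-Atp8 (-2.47, 0.076), mt-Nd4 (-2.38, 0.104) and mt-Co3 (-2.39, 0.125) were as large and did not pass. The mRNAs thus lay close together in size, from -3.70 to -2.24, and differed more in spread. Only mt-Nd3, mt-Nd4l and mt-Nd6 had every control of day 89 below every control of day 7.

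The rRNAs had the smallest range of FPKM over the 14 libraries among rRNAs and mRNAs, 14.2-fold for mt-Rnr1 and 12.6-fold for mt-Rnr2. In controls mt-Rnr1 fell by 2.65 (SE 0.53, limma adjusted p = 0.0028) and mt-Rnr2 by 2.34 (SE 0.55, adjusted p = 0.0068). In DSS ovaries mt-Rnr1 fell by 1.68 (SE 0.46, adjusted p = 0.0218) and mt-Rnr2 by 1.54 (SE 0.48, adjusted p = 0.0363). Scaled to 1000000 reads outside the mitochondrial genes, rRNA reads were 1361 to 4219 in controls and 822.4 to 4061 in DSS libraries of day 7, and 383.3 to 441.8 and 332.6 to 610.3 at day 89. No library of one day reached the range of the other.

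In DSS ovaries mt-Nd3 was the sole mRNA called, with a fall of 2.31 (SE 0.50, limma adjusted p = 0.0078). Its FPKM went from 429.6, 84.6, 184.9 and 127.2 at day 7 to 35.4, 48.4, 39.9 and 18.7 at day 89, with no overlap. mt-Co1 did not overlap either, and its estimate of -1.10 (SE 0.69, adjusted p = 0.264) did not pass. The remaining mRNAs ranged from -2.02 (mt-Atp6) to -0.30 (mt-Atp8). Over all members, 13 of 33 genes in controls and 9 of 33 in DSS ovaries had every day 89 library below every day 7 library, against 22.2% and 12.7% of all genes tested.

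Counts for the day comparisons moved with the libraries used. In controls 7 genes were called without control 53 and 31 without control 51, 11 without control 10 or control R124, and 12 without control R126. The shares of all genes called lower were 10.4%, 17.3%, 12.1%, 12.4% and 10.9% in that order. Without control 10, control 53 and DSS 75, control 51 is the sole control of day 7, so only fold changes are given for that fit, further below. In DSS ovaries 6 were called without R78 or R89 and 7 without R29, where 6.0%, 7.63% and 5.86% of all genes were called lower. All of these calls were lower at day 89.

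**Figure D4:**
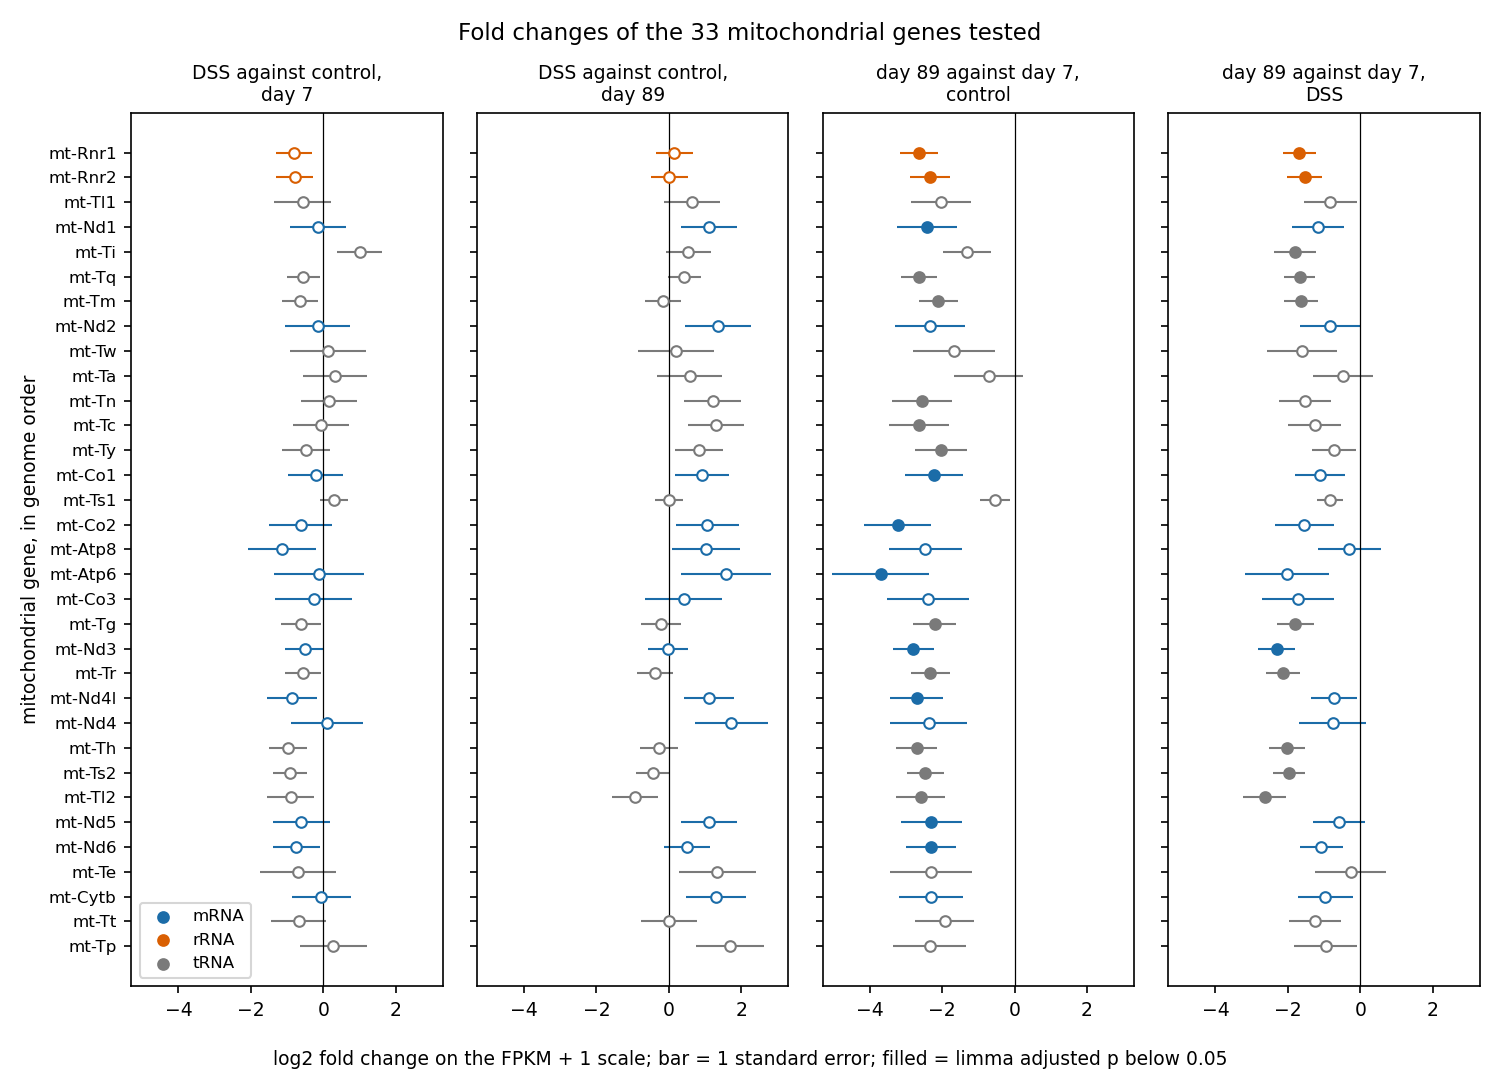
Log2 fold changes with 1 standard error of the 33 mitochondrial genes tested, in genome order, for 4 comparisons; filled points have a limma adjusted p under 0.05. No point is filled in the DSS comparisons, and all points lie below 0 in both day comparisons.

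A length trend moved with the day. For each tested nuclear gene, the log2 level in a library was taken relative to the gene's own mean over all libraries. The mean of the shortest quartile of genes minus that of the longest was 0.122 to 0.403 in all libraries of day 7. At day 89 this difference was -0.376 to -0.236 in every library but DSS R38 (0.108). These values compare libraries, and do not say whether short genes were expressed above long ones. With each library's length trend removed, limma called 16 mitochondrial genes in controls and 10 in DSS ovaries, all lower, beside 14.3% and 9.19% of all genes.

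The tRNA reads were few, 398 to 6417 per library, and made up 0.216% to 0.600% of mitochondrial reads. A tRNA is shorter than the fragments such libraries usually hold, so these reads may come from precursors or from neighbouring genes, and this was not tested. The 8 tested tRNAs with the most reads were mt-Tp, mt-Tl2, mt-Tc, mt-Te, mt-Ts2, mt-Ty, mt-Tn and mt-Tl1, in that order, with 12926 reads for mt-Tp and 776 for mt-Tl1 over all libraries. In controls mt-Tl2 fell by 2.59 (SE 0.68, limma adjusted p = 0.012) from day 7 to day 89, mt-Ts2 by 2.46, mt-Tc by 2.63, mt-Tn by 2.56 and mt-Ty by 2.03. In DSS ovaries mt-Tl2 fell by 2.64 (SE 0.59, adjusted p = 0.0092) and mt-Ts2 by 1.97 (SE 0.43, adjusted p = 0.0085), but mt-Te was at -0.26 (SE 0.98, adjusted p = 0.867).

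mt-Tl2 stood at 183.7, 770.1 and 1622 FPKM in controls and 736.1, 132.8, 381 and 307.7 in DSS libraries of day 7. At day 89 it was 103.1, 166.1 and 59.3 in controls and 50.9, 62.3, 48.3 and 47.0 in DSS libraries. No library of day 89 reached the lowest of day 7 within its treatment. mt-Tp, the tRNA with the most reads, ran in DSS libraries from 572.6 to 3452 at day 7 and from 415.4 to 636.4 at day 89, which overlapped.

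To separate the overall level from the make-up, each gene was also fitted with the library's mean log2 level of the 13 mRNAs as a covariate. In DSS ovaries 9 of the 33 genes then differed between the days. Lower at day 89 were mt-Rnr1 (-1.06, limma adjusted p = 0.0351), mt-Nd3 (-1.77, 0.0196), mt-Tr (-2.13, 0.0204), mt-Ts2 (-1.64, 0.0286), mt-Tl2 (-2.46, 0.0288), mt-Th (-1.59, 0.041), mt-Ti (-0.93, 0.041) and mt-Tq (-1.24, 0.048). Higher was mt-Te (1.27, 0.0457). Of all genes, 7.86% were called lower and 7.21% higher in this fit. The tRNAs mt-Tr, mt-Th, mt-Ti and mt-Tq were named after their values were seen. mt-Ti and mt-Tq lay near the floor, with 42 and 39 reads over all libraries. No DSS library of day 89 held more than 2 reads of mt-Ti or 1 of mt-Tq, and mt-Tr had 5 to 10 in each.

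All 8 lower genes but mt-Tq lie on the plus strand, and mt-Te lies on the minus strand. Of the 33 tested genes, 24 are on the plus strand. mt-Th, mt-Ts2 and mt-Tl2, whose sequences are shown above, are adjacent. The count moved with single libraries. It was 1 without control 51 (mt-Te, higher), 1 without DSS 81 (mt-Tq, lower), 2 without R78, 3 without R29, 4 without DSS 82 or R89, and 5 without DSS 80 or control R123. Of all genes, 6.53% to 13.5% were called in these fits. With the length trend removed 9 genes were called, all lower, beside 7.75% of all genes. Without both control 51 and control R124, a choice made after seeing the data, mt-Te alone was called. The level of the covariate is itself built from 13 of the 33 genes. In the same fit 0 of the 33 genes were called for DSS against control at day 7 (0.472% of all genes) and at day 89 (0% of all genes). None was called for the control days (11.9% of all genes) or for the difference between the DSS effects (0% of all genes). Unadjusted p-values under 0.05 numbered 3, 1, 8 and 2 (19.8%, 3.81%, 28.7% and 8.71% of all genes), and voom called 0, 0, 4 and 0 (0.533%, 0%, 12.8% and 0.00555% of all genes). These counts lay near or below the background. At day 7, 4 genes were called without DSS 75, mt-Rnr1 and mt-Rnr2 lower and mt-Atp6 and mt-Ti higher in DSS, but 11.9% of all genes were then called, a share near that of the members.

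Control 51 of day 7 and control R124 of day 89, from different groups, shared a make-up that no other library had. Their rRNA took 8.06% and 7.97% of mitochondrial reads (95% Wilson intervals 7.96% to 8.15% and 7.79% to 8.15%), against 1.37% to 3.04% in the other 12 libraries. In relation to the geometric mean FPKM of mt-Nd1, mt-Nd2, mt-Nd5 and mt-Cytb, mt-Rnr1 stood at 0.452 and 0.402 and mt-Rnr2 at 0.394 and 0.461. In the others these ratios were 0.0633 to 0.148 and 0.059 to 0.129. These were also the libraries with the lowest mitochondrial share, 1.66% and 0.479%.

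The same libraries differed in their mRNAs and tRNAs. The minus-strand mRNA mt-Nd6 stood at 1.07 and 1.25 times the same geometric mean, against 0.321 to 0.540 elsewhere. mt-Nd4 took 3.17% and 2.78% of the summed mitochondrial FPKM, against 6.12% to 10.45% in the others. mt-Tl2 alone took 54.9% and 52.5% of tRNA reads (1011 of 1843 and 209 of 398), and 5.18% to 27.1% elsewhere. mt-Tp took 10.3% and 10.8%, against 30.1% to 56.8%. Control 51 and control R124 also had the lowest summed oocyte marker FPKM of their groups, 197.4 against 303.3 and 334.8, and 44.2 against 185.7 and 173.3. They had the highest and the second highest level of the matrix protein list (881 and 859.5), with DSS R78 next at 849.1. Libraries without this make-up also lay below control 51 in oocyte markers, such as DSS R38 (74.5, with rRNA at 1.61% of mitochondrial reads). The part of either list in the make-up was not tested.

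Within DSS libraries the make-up was more even. The rRNA percent of mitochondrial reads was 2.45%, 2.28%, 2.58% and 2.20% at day 7 and 1.75%, 1.61%, 1.57% and 1.37% at day 89, without overlap. mt-Th, mt-Ts2 and mt-Tl2 together took 14.5%, 18.0%, 29.6% and 26.1% of tRNA reads at day 7, and 10.1%, 9.26%, 7.76% and 9.44% at day 89, again without overlap. DSS 75, with the highest mitochondrial share, lay within the range of its group for the rRNA percent and below it for the 3 tRNAs.

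**Figure D5:**
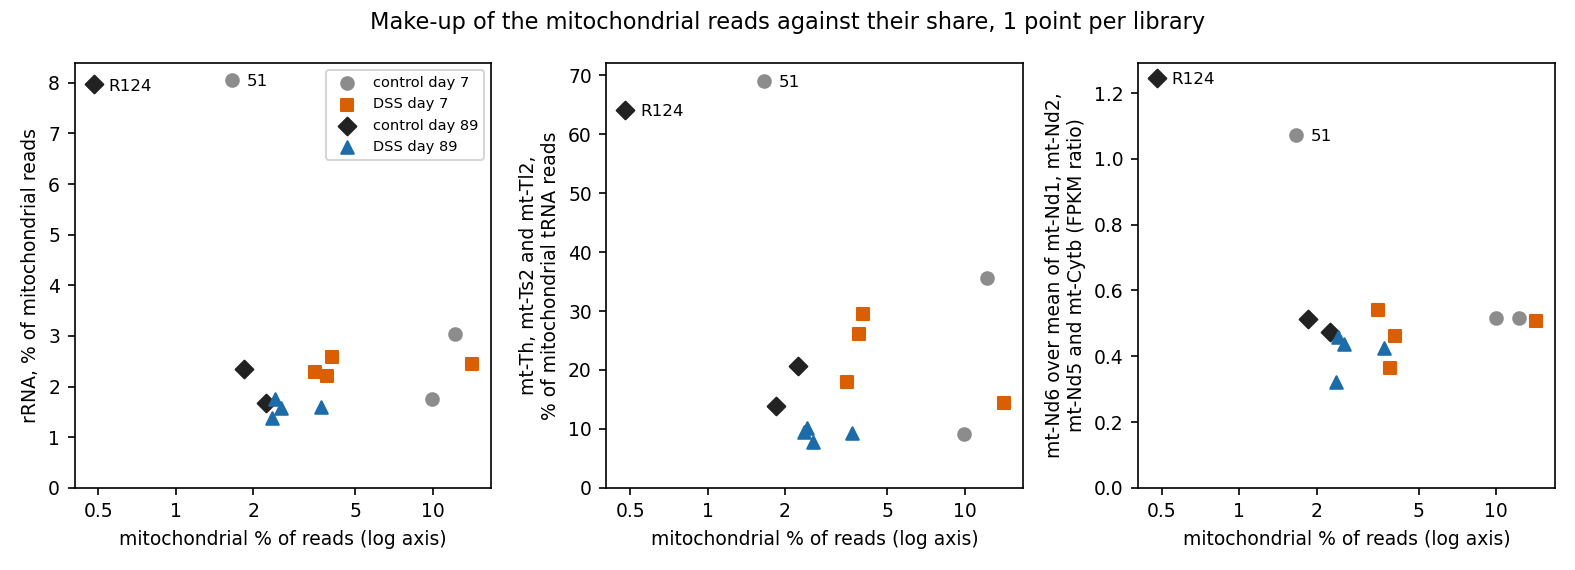
Make-up of the mitochondrial reads against their share of all reads (log axis), 1 point per library: rRNA percent of mitochondrial reads, percent of tRNA reads in mt-Th, mt-Ts2 and mt-Tl2, and mt-Nd6 FPKM over the geometric mean of mt-Nd1, mt-Nd2, mt-Nd5 and mt-Cytb. Control 51 and control R124 stand apart in all 3 panels, with rRNA at 8.06% and 7.97%.

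Across the 14 libraries, which are not independent of their 4 groups, the log2 level of each long mitochondrial gene went with the mitochondrial share. Pearson's r was 0.97 to 1.00 for mt-Nd1, mt-Nd2, mt-Co1, mt-Nd4, mt-Nd5 and mt-Cytb. It was lower for mt-Nd6 (0.92), the rRNAs (0.81 and 0.77) and the genes of the copied stretch (0.74 for mt-Nd3 to 0.96 for mt-Atp6). The genes mt-Nd1 to mt-Cytb make up most of the share, so this is a part set against its whole.

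Nuclear genes of mitochondrial gene expression gave no call for DSS. Together 179 were tested: 20 for transcription and replication of the mitochondrial genome, 39 for processing of its RNA, 29 translation factors and tRNA synthetases, 32 and 49 ribosomal proteins of the small and large subunit, and 10 regulators of biogenesis. Neither limma-trend nor voom called any of them (0) at either day. At an unadjusted p under 0.05 there were 30 at day 7 (16.8%, against 16.04% of all genes tested) and 4 at day 89 (2.24%, against 4.58%). Tfam, which packages mitochondrial DNA and is needed for its transcription, was at 18.3 ± 7.23 FPKM in controls and 13.3 ± 1.66 in DSS libraries of day 7 (log2 fold change -0.37, adjusted p = 0.429). The mitochondrial RNA polymerase Polrmt was at 7.95 ± 1.43 and 8.62 ± 1.204 (0.11, adjusted p = 0.756). Lrpprc, which stabilises mitochondrial mRNAs, was at 9.43 ± 3.64 and 6.996 ± 1.86 (-0.36, adjusted p = 0.513). The co-activator gene Ppargc1a reached 0.5 FPKM in 1 library only and was not tested.

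Between the days the nuclear lists moved less than the mitochondrial genes, and not all the same way. Of all genes tested, 15.7% were called lower and 16.1% higher in controls, and 10.7% each way in DSS ovaries. In controls, 27 of 49 large-subunit and 18 of 32 small-subunit ribosomal protein genes were lower and 2 of each higher at day 89 (medians -0.61 and -0.56). Of the nuclear subunits of complex I, 20 of 36 were lower and 2 higher (median -0.67), of complex IV 8 of 12 lower (median -0.71), of complex V 8 of 17 lower and 2 higher (median -0.65), and of complex III 4 of 9 lower and 1 higher (median -0.38). The transcription and replication list had 6 of 20 lower and 1 higher (median -0.12), and the RNA processing list 10 of 39 lower and 1 higher (median -0.05). Translation factors and synthetases had 3 of 29 lower and 5 higher, which is near the background, and biogenesis regulators 4 of 10 higher. Matrix proteins had 3 of 12 higher and 0 lower (median 0.20), and stress and mitophagy genes 5 of 14 lower and 2 higher.

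In DSS ovaries 20 of 49 large-subunit and 7 of 32 small-subunit genes were lower, with medians of -0.42 and -0.35. So were 6 of 36 complex I genes, 3 of 12 complex IV genes and 4 of 17 complex V genes. In the other direction, 1 gene each of the small subunit, complex I and complex V was higher. Complex III had 1 lower and 1 higher of 9 (median -0.03), the transcription and replication list 2 lower and 1 higher of 20, and the RNA processing list 1 of each of 39. Translation factors and synthetases had 2 of 29 higher and 0 lower (median 0.10), biogenesis regulators 2 of 10 higher and 0 lower, and matrix proteins 1 of 12 higher. Stress and mitophagy genes had 3 of 14 lower and 2 higher. The strongest list genes by p included the ribosomal proteins Mrps9, Mrps6 and Mrpl12 in both treatments. Mrps9 went from 17.4 ± 0.696 to 6.98 ± 0.261 FPKM in controls (log2 fold change -1.204, limma adjusted p = 0.00037) and from 14.8 ± 3.20 to 8.01 ± 0.893 in DSS ovaries (-0.79, adjusted p = 0.0027). In controls Uqcrh of complex III and Mrpl18 also fell, by 1.76 and 1.05. In DSS ovaries Ndufs4 of complex I and the mitochondrial topoisomerase Top1mt fell by 0.73 and 0.85. The part of the length trend given above in these nuclear changes was not tested.

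Tfam, Polrmt and Lrpprc did not pass between the days in either treatment, with adjusted p-values from 0.175 (Lrpprc in DSS ovaries) to 0.792 (Polrmt in DSS ovaries).

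Among the nuclear genes whose log2 level was most like the log2 mitochondrial share over the 14 libraries, of 7971 with a mean FPKM of at least 5, were Uqcc2 (r = 0.96), Mapk1ip1 (0.96), Pan2 (0.95), Cox8a (0.94) and Eif3d (0.94). Most unlike it were Tm4sf1 (-0.97), Ppp2cb (-0.97) and Klhl7 (-0.96). Uqcc2, an assembly factor of complex III, ran from 15.8 to 135.3 FPKM. Without control R124 and DSS 75 the values were 0.89 to 0.93 for these 5 and -0.95 to -0.94 for the 3. These were picked as extremes of all genes compared.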

How the data were processed

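The authors deposited FPKM per gene and library, with gene lengths. HISAT2 2.0.5 and GRCm38 appear in the submitters' processing notes, and a TruSeq RNA kit in the labels' protocols. The RNA selection, the counting program and the treatment of multiply mapped reads: not stated. Multiplied by length, FPKM gave read numbers (whole within 0.01 step), and the total implied by the authors' scaling was 0.852 to 1.073 times the recovered total. It was lowest in the libraries of highest mitochondrial share, DSS 75 (0.852), control 53 (0.913) and control 10 (0.935). Elsewhere it was 0.995 or more. A lower total gives a higher FPKM, so the scaling raised FPKM in those libraries.

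Values were fitted as log2(FPKM + 1), a scale that understates changes of low genes, over all tested genes with limma 3.58.1 (trend) in R 4.3.3, with 1 mean per group and Benjamini-Hochberg adjustment. The fit was tested on simulated data with independent noise, unlike mitochondrial genes, which move together. Among genes with the widest spread it called 0% to 16% of log2 falls of 1 and 36% to 52% of falls of 2. Falls of 4 were called at 92% to 100%. Changes of 1 to 2 in genes of wide spread can thus be missed. Ratios used the 4 plus-strand mRNAs outside the copied stretch in place of all 13, chosen after the copies were seen. Copies were sought with blastn 2.17.0 (90% identity, 100 bases) in GENCODE M21 transcripts, the source of all sequences shown. Named genes are all mRNAs and rRNAs, the 8 tested tRNAs with most reads, the 6 highest nuclear copies, 6 list genes per day comparison by p, 4 regulators, and the genes most like the share. A few items that the rule names are not reported here. Alternatives were other pseudocounts, filters, scalings, voom, library weights, length correction and left-out libraries. Genes and lists were chosen with earlier results of these data known.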

Additional observations from a re-analysis of the deposited data

Results flagged for a closer look

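Values listed here lay so far from the next library of their group of 4 that the gap exceeded Dixon's 95% limit. Of 58 group and measure pairs, 23 values stood apart, where chance gives about 1 in 20, and the measures share libraries and are not independent. DSS 75 of day 7 held 18 of them. Its mRNA FPKM stood apart for mt-Co1 (44060, others up to 10110), mt-Cytb (22780, others up to 6147), mt-Nd1 (21350, others up to 5678), mt-Nd2 (12350, others up to 2403), mt-Nd4 (10100, others up to 2295) and mt-Nd5 (7961, others up to 1414). So it did for mt-Nd6 (7494, others up to 1574), mt-Co3 (2081, others up to 115.2) and mt-Nd4l (243.4, others up to 41.9). Both rRNAs stood apart in it, mt-Rnr1 at 1670 and mt-Rnr2 at 1576 FPKM, with 4061 rRNA reads when scaled to 1000000 reads outside the mitochondrial genes. Among its tRNAs mt-Tp (3452), mt-Tc (936.9), mt-Te (672.4), mt-Tl1 (215.8) and mt-Ty (211.6 FPKM) did as well. The mitochondrial share of DSS 75 was 14.24%, others up to 4.04%.

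At day 89 DSS R38 stood apart for its mitochondrial share (3.663%, others up to 2.57%), mt-Cytb (6366 FPKM), mt-Nd4 (3061 FPKM) and mt-Atp8 (8.732 FPKM). DSS R89 stood apart for mt-Nd4l (57.71 FPKM, others up to 24.4).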

How the results depend on the processing

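No paired analysis was possible because the groups share no replicate numbers. Of the 33 genes, the number called for DSS at day 7 was 28 with library weights, beside 39.6% of all genes. Shares here count calls in either direction. It was 0 to 3 leaving out 1 library at a time. Without the 3 libraries of highest mitochondrial share, control 51 is the sole control of day 7, so only fold changes are given. For the control days the number was 11 with no filter, 11 with only the groups compared and 32 with weights. Of all genes, 13.2%, 26.3% and 65.5% were called in these fits. Leaving out 1 library it was 7 to 31, and the shares called lower without each control but R123 are given above. For the DSS days it was 6 with no filter, beside 7.9% of all genes, and 6 to 13 leaving out 1. For leaving out 1, shares over all genes are given above for only some libraries. The ranges alone thus do not set the members apart from other genes. The difference between the DSS effects gave 23 with weights, beside 23.5% of all genes. DSS at day 89 gave 0 in every setting run.

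Given the mitochondrial mRNA level, DSS at day 7 gave 1 with the length trend removed and 0 to 4 leaving out 1 library (4 without DSS 75). The control days gave 1 with pseudocount 0.1, 1 scaled to the recovered total, 2 with only the groups compared, 2 with the length trend removed and 4 with voom. Leaving out 1, they gave 0 to 6 (6 without control 10, 5 without DSS 75, 3 without R124). The DSS days gave 0 with no filter, 5 with only the groups compared, 1 without control 51 and control R124 (added after seeing the data), and 1 to 9 leaving out 1. Shares over all genes are given above for only part of these settings, so the counts alone do not set the members apart from other genes. The causes were not tested.

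Log2 fold changes that turned sign were these. For DSS at day 7, mt-Co1 was 1.03 without the 3 libraries and -1.11 to 0.36 leaving out 1. mt-Cytb was 0.038 scaled to the recovered total, 0.014 scaled to reads outside MT, 0.037 with voom, 1.62 without the 3 libraries, and -1.13 to 0.53 leaving out 1. For DSS at day 89, mt-Rnr1 was -0.036 with weights and -0.028 to 0.31 leaving out 1. mt-Rnr2 was -0.11 with weights, -0.06 with the length trend removed, and -0.11 to 0.12 leaving out 1. Without the 3 libraries the control days gave mt-Atp8 0.089, mt-Atp6 0.33, mt-Co3 0.044, mt-Nd4 0.27 and mt-Tp 0.095. The DSS days gave mt-Atp8 0.15, mt-Nd4l 0.054, mt-Nd5 0.083 and mt-Te 0.58, and the difference between the DSS effects gave mt-Co1 -0.10 and mt-Cytb -0.31. With weights the DSS days gave mt-Te 0.49 and mt-Tl1 0.31. Leaving out 1, they gave mt-Atp8 -0.85 to 0.15, mt-Nd4l -1.14 to 0.05, mt-Nd5 -0.87 to 0.08 and mt-Te -0.60 to 0.58.

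Without the genes of the copied stretch, which makes the denominator smaller, mean rRNA percent was 8.34, 4.82, 8.03 and 3.10 in control day 7, DSS day 7, control day 89 and DSS day 89, and mt-Cytb percent was 30.7, 35.9, 31.2 and 35.9. The 3 libraries were defined by the mitochondrial share itself, so values without them are a description. Read numbers limit the tRNAs, of which the shallowest library held 398 reads.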
